A study of Mus musculus with 8 samples.

Results

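The mitochondrial respiratory chain was examined in Apc-mutant mouse intestinal organoids at day 7 and day 20 after tamoxifen, through the nuclear genes that encode its subunits and several of its assembly factors. Members were all genes whose annotated symbol begins with Nduf, Sdha, Sdhb, Sdhc, Sdhd, Uqcr, Cox4, Cox5, Cox6, Cox7 or Cox8, together with Cyc1 and Cycs. This gave 77 of the 19057 genes with a named probe. Of these, 34 encode subunits of complex I, 4 of complex II, 8 of complex III and 17 of complex IV. Another 8 are complex I assembly factors, 4 are complex II assembly factors, 1 is cytochrome c and 1 is a pseudogene, Ndufs5-ps. Ndufa4 was counted with complex IV, where its protein is now placed. Where several probes named a gene, the brightest on average across the 8 arrays stood for it.

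The respiratory chain passes electrons from NADH (complex I) and succinate (complex II) through ubiquinone to complex III, then by cytochrome c to complex IV, which reduces oxygen. Complexes I, III and IV pump protons, and the resulting gradient drives ATP synthase. Mature absorptive cells of the intestine are rich in mitochondria, whereas proliferating cells with active Wnt signalling are known for a high rate of glycolysis.

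Organoids, cultures of intestinal epithelium in 3 dimensions, came from C57Bl mice of 2 to 3 months with the genotype Lgr5-EGFP-IRES-CreER; Apcflox/flox, and every sample of both groups carried these alleles. Tamoxifen, given for 2 days, activated a Cre recombinase expressed from the stem cell gene Lgr5, and R-Spondin1 was then left out for 5 days (day 7 group) or 18 days (day 20 group). RNA of 4 samples per day was hybridised to Illumina beadchips, 1 array per sample. Both groups followed the deletion and none was left undeleted. The days since deletion, the days without R-Spondin1 and the days in culture therefore cannot be told apart. Nothing in the labels ties the 4 samples of a day to different animals or cultures. The p-values thus reflect the spread among these arrays, possibly in part a technical one, and precision is limited by how few arrays there are. The Xist values given below differ among the day 20 arrays, so these were not all repeats of the same RNA.

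Values are the deposited normalized log2 intensities, and differences are day 20 minus day 7 on that scale. A probe counted as above background when it exceeded a limit of 6.796, and a gene was tested when its probe did so on at least 4 of the 8 arrays. Levels of different probes are not comparable, so each gene is compared only with itself. All 8 markers of intestinal epithelium fixed for the check were tested, while 5 of 7 goblet, 6 of 7 enteroendocrine and 9 of 11 enterocyte markers were. The enterocyte markers averaged 9.273 to 11.79 across the day 7 arrays and 7.048 to 7.251 across the day 20 arrays, with day 7 replicate 2 the highest. Of the tested markers, 5 of 9 enterocyte, 4 of 5 goblet, 6 of 6 enteroendocrine and 4 of 6 stem cell markers were lower at day 20. The mean shift was -3.02 for enterocyte, -2.78 for goblet, -3.03 for enteroendocrine and -0.96 for stem cell markers. The 8 epithelium markers all had positive differences, with 1 passing and a mean shift of 0.23. Of 4 tested Paneth cell markers, 1 was higher (Mmp7, by 0.83, limma adjusted p = 0.0164) and none lower, with a mean shift of -0.258. None of 3 tested fibroblast markers and 1 tested immune marker passed. Among them Vim differed by -2.03, at 8.74, 11.05, 11.31 and 7.95 on day 20 replicates 1 to 4. The part of these shifts in the values of the respiratory chain genes was not tested. In RNA from whole cultures, fewer cells of a type and less RNA per cell cannot be told apart. Xist, a transcript of female cells, was at 6.68 and 6.74 on day 20 replicates 1 and 4, below the background limit, and at 9.39 to 10.41 on the other 6 arrays. Where a member's call changed without those arrays, both values are given, and so are the medians by complex. Other differences also shifted without those arrays, and only some of these values are given.

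Among the respiratory chain genes, 70 of 77 were tested and 2 passed the threshold (limma, Benjamini-Hochberg adjusted p under 0.05 over all 12466 tested genes). Both were higher at day 20. These were the complex II assembly factor gene Sdhaf1 and the complex IV isoform gene Cox6b2. The share of all tested genes called higher was 2.51% and the share called lower was 2.33%, 4.85% in either direction. Among the members it was 2 of 70 (2.86%), both upward. Whether the members differ from all tested genes in this share was not tested. No member passed in the downward direction. At an unadjusted p under 0.05, 9 members were higher and 1 was lower, against 10.8% and 9.62% of all tested genes. Groups of arrays did not overlap for 2 members upward and 1 downward, where 6.27% and 6.84% of all tested genes showed this.

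On the deposited scale, most members had a narrow interval for the probe that stood for them, as did most tested genes. The 95% confidence interval of the difference had a median half-width of 0.223 on the log2 scale over the 70 tested members, against 0.214 over all tested genes. For 56 of the 70 members the whole interval lay between -0.5 and 0.5, as it did for 72.4% of all tested genes. For genes near background this scale compresses change, so a narrow interval there does not bound the change in RNA. Cox7a2, at 7.33 to 7.84, differed by 0.225 on this scale and by 0.411 with the background mode subtracted. Each interval is also that of a single probe, and another probe of the gene can lie outside it. The interval of Ndufs6 was -0.122 to 0.132, while its dimmer probe differed by 0.295. By contrast, the probes of Cox6b1 differed by -0.182 and -0.17. The median difference of the members was 0.027, next to 0.005 for all tested genes, and 48 members had a positive and 22 a negative difference. The plot of all differences by complex shows how closely most members cluster around 0.

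**Figure D1:**
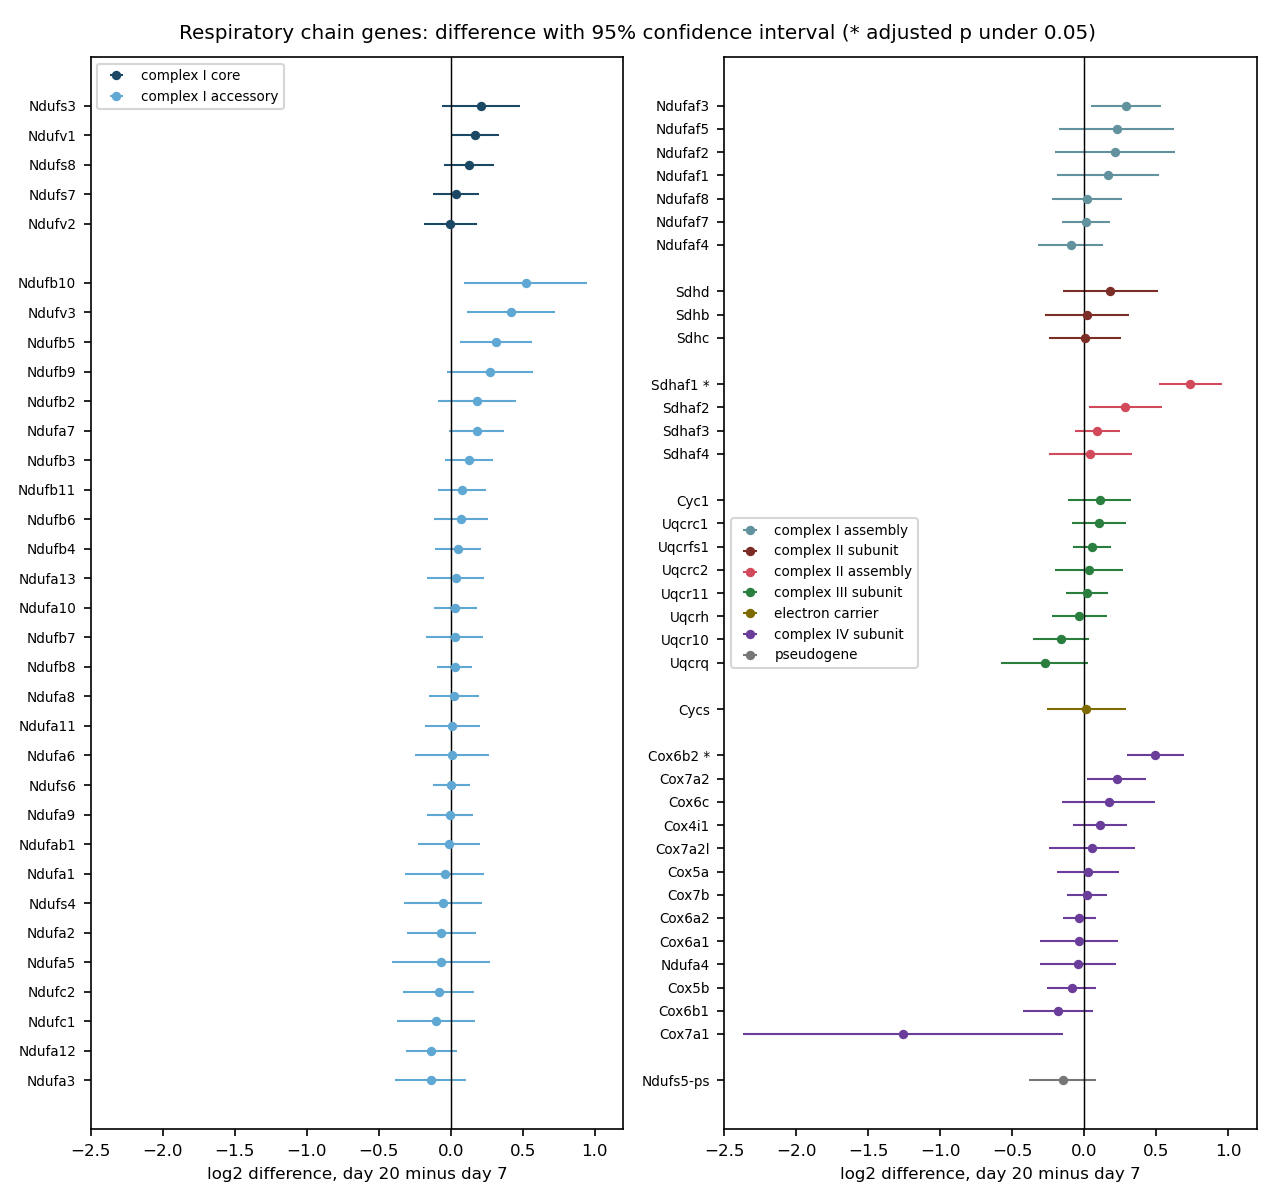
Log2 difference, day 20 minus day 7, of each of the 70 tested respiratory chain genes (points) with its 95% confidence interval (lines), coloured by complex and role; stars mark adjusted p under 0.05. Sdhaf1 (0.74) and Cox6b2 (0.50) carry stars, Cox7a1 has the lowest value (-1.26) and the widest interval, and most other intervals cross 0.

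By complex, the medians lay close together. The 5 tested core subunits of complex I, most of which carry redox centres, had a median difference of 0.13. The 28 accessory subunits had one of 0.03 (range -0.14 to 0.52). Complex II subunits had 0.02 (3 tested), complex III subunits 0.03 (8 tested) and complex IV subunits 0.02 (13 tested). Assembly factors, which help build the complexes but are not part of them, had medians of 0.17 for complex I (7 tested) and 0.19 for complex II (4 tested). Of the 11 tested assembly factors 10 had a positive difference and 1 passed, while of 58 tested subunits and cytochrome c 38 were positive and 1 passed. Over all 12466 tested genes 6445 were positive and 4.85% passed, and of 27 assembly factors outside the member rule 20 were positive and 0 passed by limma (6 higher and 1 lower at an unadjusted p under 0.05). The difference between assembly factors and subunits was not tested. These medians moved with single arrays. With each array left out in turn they ranged from 0.087 to 0.191 for complex I core, from -0.001 to 0.032 for complex I accessory, from -0.048 to 0.147 for complex II, from -0.017 to 0.051 for complex III and from -0.016 to 0.032 for complex IV subunits. The assembly factor medians ranged from 0.06 to 0.253 for complex I (lowest without day 7 replicate 1, highest without day 7 replicate 3) and from 0.142 to 0.227 for complex II. The complex II subunit median was lowest without day 20 replicate 2 and highest without day 20 replicate 3. Without day 20 replicates 1 and 4, the median became -0.03 for complex I accessory subunits and -0.07 for complex I assembly factors. For complex III and complex IV subunits it became -0.019 and -0.017. It was then 0.103 for complex I core, 0.035 for complex II subunits and 0.221 for complex II assembly factors.

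For a view by array, each gene was centred and then averaged over a complex. Complex I accessory subunits averaged -0.017, 0.022, -0.099 and -0.026 on day 7 replicates 1 to 4 and 0.053, 0.043, -0.059 and 0.082 on day 20 replicates 1 to 4. Complex III subunits averaged 0.046, 0.017, -0.100 and 0.074 at day 7 and 0.005, -0.095, -0.001 and 0.055 at day 20, in the same order. In both complexes the days overlapped. Complex IV subunits ranged from -0.057 to 0.155 at day 7 and from -0.106 to 0.053 at day 20; the highest day 7 value was that of replicate 2, and without Cox7a1 that array stood at -0.025, within the day 7 range of -0.053 to -0.003. Complex II assembly factors were the only group of the 7 plotted whose arrays did not overlap, at -0.255 to -0.052 on day 7 and 0.040 to 0.288 on day 20. Without Sdhaf1 the 3 others ranged from -0.150 to 0.000 at day 7 and from -0.060 to 0.260 at day 20, and overlapped. Day 20 replicate 3 had the lowest mean of its day over all members, -0.079 against 0.037 to 0.083 on the other day 20 arrays.

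**Figure D2:**
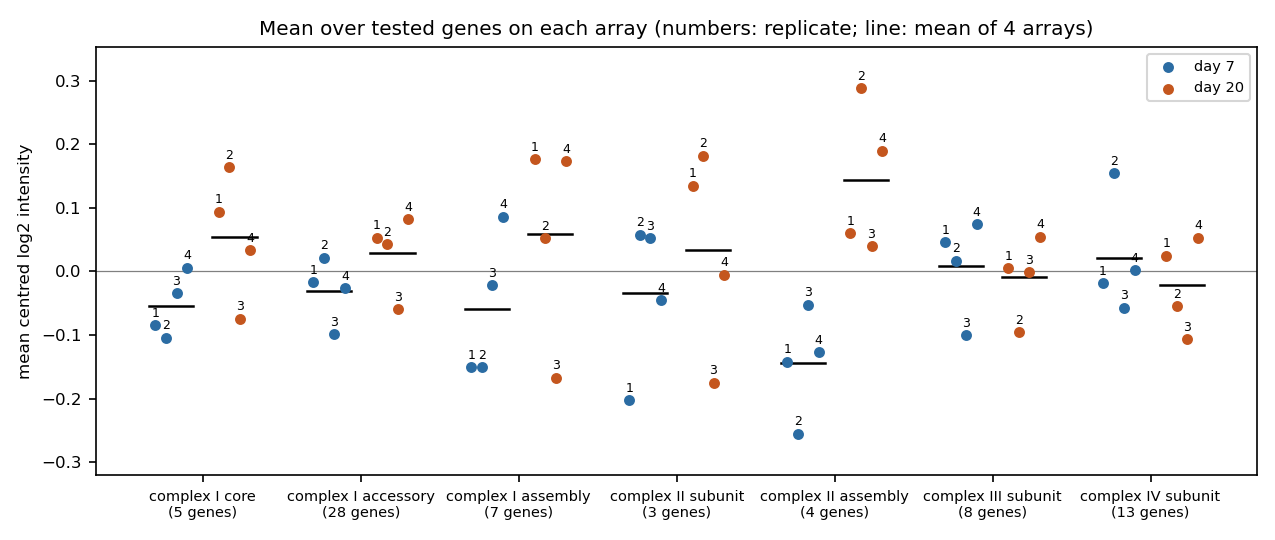
Mean centred log2 intensity over the tested genes of each complex and role on every array; each point is 1 array, numbers are replicates, and black lines are means of 4 arrays. The days overlap in every group except the complex II assembly factors, where the lowest day 20 array (0.040) lies above the highest day 7 array (-0.052).

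Of the complex II assembly factors, Sdhaf1 alone passed. It encodes a small mitochondrial protein needed to place iron-sulfur clusters in the Sdhb subunit. Sdhaf1 was at 9.53, 9.24, 9.60 and 9.40 on day 7 replicates 1 to 4 and at 10.23, 10.18, 10.01 and 10.30 on day 20 replicates 1 to 4. Every day 20 array lay above every day 7 array. The mean went from 9.44 ± 0.158 (SD, n = 4) to 10.18 ± 0.124 (SD, n = 4), a rise of 0.74 (SE 0.096), or 1.67-fold on this scale, with a limma adjusted p of 0.0049. The call held under all 17 alternative settings, with adjusted p between 0.00356 and 0.0416. A second Sdhaf1 probe differed by 0.96, from 8.55 to 9.12 at day 7 to 9.12 to 10.10 at day 20, so that its day 20 replicate 3 equalled its highest day 7 array. The other complex II assembly factors did not pass: Sdhaf2 differed by 0.29 (limma adjusted p = 0.19), Sdhaf3 by 0.09 and Sdhaf4 by 0.04.

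The stretch of 250 bases before the annotated start of each called gene is shown because these were the 2 members that passed the threshold. Sequences are from RefSeq (GRCm38.p6), and the array values themselves name no genome build. Each was searched on both strands for ACGTG, the core of the hypoxia response element, for the palindromic consensus of the mitochondrial regulator Nrf1, and for CCGGAAG, a core bound by Ets factors such as Gabpa. Capitals mark a match, which is a description of the letters and not a bound site. The first lies at chr7:30322376-30322625 and the second at chr7:4753095-4753344, both on the minus strand and printed 5′ to 3′.
Sdhaf1: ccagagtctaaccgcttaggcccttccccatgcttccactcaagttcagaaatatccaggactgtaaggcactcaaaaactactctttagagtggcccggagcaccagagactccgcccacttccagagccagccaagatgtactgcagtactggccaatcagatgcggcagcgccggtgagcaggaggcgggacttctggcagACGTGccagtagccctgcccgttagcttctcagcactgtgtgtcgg
Cox6b2: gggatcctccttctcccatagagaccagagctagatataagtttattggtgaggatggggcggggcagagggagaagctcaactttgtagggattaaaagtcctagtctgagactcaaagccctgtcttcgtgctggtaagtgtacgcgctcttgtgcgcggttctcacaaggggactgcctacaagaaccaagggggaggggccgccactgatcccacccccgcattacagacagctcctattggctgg
The Sdhaf1 stretch holds ACGTG once, starting 46 bases before the start, and the Cox6b2 stretch holds none of the 3 motifs. ACGTG occurs in 16.6% of all 32851 windows of this length in the table, in 17.8% of those of protein-coding genes and in 12 of the 65 windows of members (18.5%).

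The other motifs are known from promoters of respiratory chain genes. CCGGAAG was found in 12 of the 65 member windows (18.5%) and in 8.98% of windows of protein-coding genes (6.91% of all). The Nrf1 consensus was found in 3 member windows (4.62%) and in 1.07% of windows of protein-coding genes (0.782% of all). A total of 63 members had at least 1 window in the table. The 3 matches to the longer motif are printed with 20 bases on each side, since they mark members with a consensus for this regulator; the capitals spell the motif.
Cox6a1, chr5:115349091-115349140, minus strand: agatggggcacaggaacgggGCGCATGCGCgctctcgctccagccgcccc
Ndufa11, chr17:56717682-56717731, plus strand: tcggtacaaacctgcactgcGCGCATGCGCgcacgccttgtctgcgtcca
Ndufaf4, chr4:24897950-24897999, plus strand: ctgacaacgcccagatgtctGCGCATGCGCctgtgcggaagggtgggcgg
Their differences were -0.04 for the complex IV subunit gene Cox6a1, 0.01 for the complex I accessory subunit gene Ndufa11 and -0.10 for the assembly factor gene Ndufaf4. None of the 3 passed the test. Nrf1 itself differed by -0.23 (limma adjusted p = 0.364) and Gabpa by 0.18 (limma adjusted p = 0.309).

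Complex IV has subunits that exist as alternative isoforms, of which some are known mainly from muscle or testis, and Cox6b2 is the testis form of the subunit whose common form is Cox6b1. Cox6b2 was at 7.04, 6.90, 6.95 and 6.99 on day 7 replicates 1 to 4 and at 7.43, 7.68, 7.27 and 7.48 on day 20 replicates 1 to 4. All arrays were above the background limit, and the days did not overlap. The mean went from 6.97 ± 0.0594 (SD, n = 4) to 7.47 ± 0.169 (SD, n = 4), a rise of 0.50 (SE 0.087) with a limma adjusted p of 0.0188. These values sit close to background, which compresses the change: with the background mode subtracted it was 1.24. Leaving out day 7 replicate 3 ended the call (limma adjusted p = 0.0555), as did leaving out day 20 replicate 4 (0.0534) or both day 20 arrays that lack Xist signal (0.0919), although the difference itself stayed between 0.49 and 0.51 in these settings. A second Cox6b2 probe was above the limit on 3 of 8 arrays and differed by 0.08.

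Cox6b1 did not pass. It was at 13.85, 14.10, 13.71 and 13.91 on the day 7 arrays and at 13.69, 13.52, 13.72 and 13.91 on the day 20 arrays, in replicate order. The difference was -0.18 (95% interval -0.43 to 0.06, limma adjusted p = 0.383), and the days overlapped. Its other probe differed by -0.17.

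Cox7a1, the heart and skeletal muscle form of another complex IV subunit, had the lowest difference of any member. It was at 8.61, 10.70, 8.28 and 8.44 on day 7 replicates 1 to 4, and at 7.70, 7.71, 7.75 and 7.84 on day 20 replicates 1 to 4. The 4 day 20 arrays were nearly equal, all 4 day 7 arrays lay above them, and day 7 replicate 2 stood far above the rest. The difference of -1.26 (SE 0.485) did not pass on all 8 arrays (limma adjusted p = 0.188), whereas without day 7 replicate 2 it was -0.69 and passed (limma adjusted p = 0.00605). Day 7 replicate 2 was also the array with the highest enterocyte markers: Apoa1, an apolipoprotein of absorptive cells, was at 14.84 there and at 11.96 to 12.77 on the other day 7 arrays, and at 7.22 to 7.57 at day 20. The part of these markers in the Cox7a1 values was not tested. Of 7 markers of muscle, 6 were above the limit on too few arrays to be tested, and Acta1 was at 9.80 on day 7 replicate 2, below the other day 7 arrays (10.98 to 11.88).

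**Figure D3:**
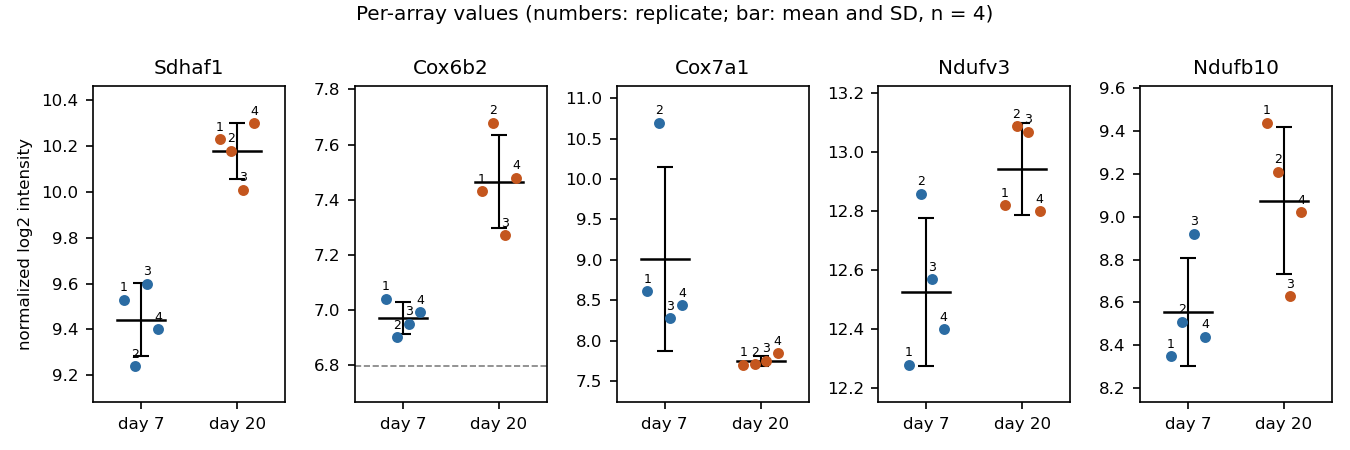
Normalized log2 intensity of 5 respiratory chain genes on each array, with separate vertical scales that do not start at 0; points are arrays numbered by replicate, bars are the mean and SD of 4 arrays, and the dashed line in the Cox6b2 panel is the background limit of 6.796. Sdhaf1 and Cox6b2 separate the days, Cox7a1 does so with 1 high day 7 array (10.70), and Ndufv3 and Ndufb10 overlap.

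The common counterpart of Cox7a1 is Cox7a2. It was at 7.52, 7.33, 7.56 and 7.70 at day 7 and at 7.76, 7.84, 7.61 and 7.80 at day 20, in replicate order, and differed by 0.23 without passing (95% interval 0.02 to 0.43, limma adjusted p = 0.198). Cox7a2l, related in sequence and known to link complexes III and IV into supercomplexes, was at 11.85, 11.28, 11.43 and 11.24 and then at 11.61, 11.50, 11.44 and 11.46. Its difference was 0.05 (95% interval -0.25 to 0.35).

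For 2 other subunits the common form was well above background and the alternative form at or near it. Cox4i1, the ubiquitous form of subunit IV, was at 13.76, 13.63, 13.62 and 13.91 at day 7 and at 13.95, 13.87, 13.73 and 13.82 at day 20 (difference 0.11, 95% interval -0.08 to 0.30). Cox4i2, known as an oxygen-responsive form, was at 6.71, 6.73, 6.64 and 6.70 at day 7 and at 6.65, 6.70, 6.73 and 6.64 at day 20. No array showed Cox4i2 above the limit, so no change of it could be measured. Cox6a1 was at 13.46, 13.68, 13.25 and 13.55 and then at 13.47, 13.25, 13.39 and 13.69. Cox6a2, its heart and muscle counterpart, was at 6.79, 6.89, 6.87 and 6.80 and then at 6.80, 6.80, 6.84 and 6.78, at the limit throughout. Ndufa4, a further complex IV subunit, was at 13.52, 13.23, 13.20 and 13.38 at day 7 and at 13.41, 13.03, 13.22 and 13.49 at day 20, with a difference of -0.05 (95% interval -0.31 to 0.22).

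Cox7b, an ubiquitous small subunit, was at 7.03, 7.24, 7.10 and 7.15 at day 7 and at 7.11, 7.11, 7.15 and 7.22 at day 20, a difference of 0.02. Its testis counterpart Cox7b2 was at 6.80, 6.75, 6.72 and 6.87 and then at 6.70, 6.68, 6.72 and 6.69, above the limit on 2 arrays only. Cox8b, a muscle form, was at 6.65, 6.75, 6.79 and 6.81 and then at 6.85, 6.77, 6.70 and 6.72. Neither gene was tested, and nor was Cox8c, known from testis, at 6.59, 6.67, 6.63 and 6.67 and then at 6.66, 6.75, 6.63 and 6.62. Over the 14 isoform genes with a named probe, 10 were tested and Cox6b2 alone passed. The remaining complex IV members Cox5a, Cox5b and Cox6c had differences of 0.03, -0.09 and 0.17, and none passed.

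Complex I had no called gene among 33 tested subunits and 7 tested assembly factors. Ndufv1, which binds NADH and the flavin cofactor, was at 13.07, 13.10, 13.31 and 13.23 at day 7 and at 13.45, 13.34, 13.26 and 13.33 at day 20. The difference was 0.17 (95% interval 0.002 to 0.333, limma adjusted p = 0.241). Ndufv2, an iron-sulfur subunit beside it, was at 12.43, 12.57, 12.56 and 12.68 and then at 12.64, 12.67, 12.52 and 12.40, a difference of -0.003 (95% interval -0.187 to 0.182).

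The core subunits nearer to the ubiquinone site did not pass either. Ndufs3, with the largest difference of the 5 tested core subunits, was at 11.07, 10.81, 10.96 and 10.97 at day 7 and at 11.28, 11.35, 10.82 and 11.20 at day 20 (difference 0.21, limma adjusted p = 0.369). Ndufs7, an iron-sulfur protein, was at 12.31, 12.45, 12.34 and 12.49 and then at 12.33, 12.56, 12.44 and 12.41 (difference 0.04). Ndufs8, another iron-sulfur protein, was at 11.93, 11.78, 11.89 and 11.89 and then at 12, 12.13, 11.82 and 12.06 (difference 0.13, limma adjusted p = 0.387). For all 5 tested core subunits the interval of the difference stayed between -0.5 and 0.5. Ndufs1, the largest core subunit, was at 6.79, 6.84, 6.80 and 6.59 and then at 6.75, 6.67, 6.65 and 6.75, above the limit on 2 of 8 arrays, and was not tested.

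Of the 5 largest positive differences, 3 belonged to accessory subunits of complex I, although none passed. Ndufb10, of the membrane arm, was at 8.35, 8.51, 8.92 and 8.44 at day 7 and at 9.44, 9.21, 8.63 and 9.02 at day 20. Its difference was 0.52 (SE 0.186, limma adjusted p = 0.162), and day 20 replicate 3 lay below the highest day 7 array. A second Ndufb10 probe differed by 0.44. Ndufb5, also of the membrane arm, was at 7.86, 8.08, 8.14 and 8.04 and then at 8.35, 8.61, 8.12 and 8.30, a difference of 0.32 (SE 0.109, limma adjusted p = 0.153) with day 20 replicate 3 inside the day 7 range.

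Ndufv3, an accessory subunit of the NADH-oxidising arm, was at 12.28, 12.86, 12.57 and 12.40 at day 7 and at 12.82, 13.09, 13.07 and 12.80 at day 20. The difference was 0.42 (SE 0.133, limma adjusted p = 0.126), and only day 7 replicate 2 reached into the day 20 range. Without that array it was 0.53 and passed (limma adjusted p = 0.0365). Another Ndufv3 probe was at 11.74, 12.08, 11.83 and 11.60 and then at 12.43, 12.74, 12.47 and 12.34, and here the days did not overlap. The remaining probe, near background at a mean level of 7.16, differed by 0.258. The average of the gene's 3 probes differed by 0.45 and passed (limma adjusted p = 0.0327).

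Other accessory subunits covered a narrow range, from -0.14 for Ndufa3 to 0.27 for Ndufb9. The pseudogene Ndufs5-ps was at 10.70, 10.87, 10.55 and 10.72 at day 7 and at 10.56, 10.46, 10.42 and 10.80 at day 20, a difference of -0.15 (limma adjusted p = 0.462); whether its probe also binds transcripts of the parent gene was not tested. Assembly factors of complex I ranged from -0.10 for Ndufaf4 to 0.29 for Ndufaf3 (limma adjusted p = 0.174), and Ndufaf6 lay below the limit on too many arrays to be tested.

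Complex II joins the citric acid cycle to the respiratory chain, and none of its tested subunits passed alongside their assembly factor Sdhaf1. Sdhb, the iron-sulfur subunit that Sdhaf1 helps to mature, was at 9.98, 10.12, 9.93 and 10.02 at day 7 and at 10.15, 10.25, 9.64 and 10.08 at day 20. The difference was 0.02 (95% interval -0.27 to 0.31, limma adjusted p = 0.961). Sdhc, a membrane anchor, was at 11.98, 12.47, 12.17 and 12.20 and then at 12.16, 12.38, 12.10 and 12.21 (difference 0.007, 95% interval -0.242 to 0.257). Sdhd, the other anchor, was at 7.23, 7.38, 7.85 and 7.44 and then at 7.89, 7.71, 7.53 and 7.49 (difference 0.18, 95% interval -0.15 to 0.51). The interval of Sdhaf1, 0.52 to 0.96, lay above those of all 3 tested subunits, though only just above that of Sdhd. Sdhd was near background, where changes are compressed, and Sdhaf1 was singled out by its call. The difference between these genes was not tested. The single Sdha probe, for the flavoprotein, was below the limit on every array, at 6.58, 6.63, 6.68 and 6.75 and then at 6.69, 6.70, 6.65 and 6.59, so Sdha was not tested.

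Complex III and cytochrome c showed no called gene among 9 tested. Cyc1, the cytochrome that hands electrons on to cytochrome c, was at 12.68, 12.52, 12.70 and 12.82 at day 7 and at 12.94, 12.59, 12.74 and 12.88 at day 20 (difference 0.11, 95% interval -0.11 to 0.33). Cycs, cytochrome c itself, was at 11.74, 12.06, 11.87 and 11.78 and then at 11.96, 12.04, 11.55 and 11.96 (difference 0.02, 95% interval -0.26 to 0.29). Its day 20 replicate 3 lay below the other 3 day 20 arrays. Uqcrfs1, the Rieske iron-sulfur protein, was near background at 6.88, 6.73, 6.74 and 6.83 and then at 6.78, 6.91, 6.85 and 6.86, so its difference of 0.06 is limited by background.

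Small subunits of complex III had the lowest differences of that complex. Uqcrq was at 9.43, 9.18, 8.99 and 8.88 at day 7 and at 8.99, 8.61, 8.90 and 8.88 at day 20 (difference -0.28, 95% interval -0.58 to 0.03, limma adjusted p = 0.284). Uqcr10 was at 14, 14.03, 13.79 and 14.06 and then at 13.84, 13.63, 13.85 and 13.91 (difference -0.16, limma adjusted p = 0.335), and its other probe differed by -0.23. The days overlapped for both genes. The core proteins Uqcrc1 and Uqcrc2 differed by 0.11 and 0.04.

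Where a gene had several probes above background, they did not always give the same difference. Several probes were above background for 23 members. In 15 of them (65.2%) the mean of the other probes was more positive than the brightest probe, against 51.5% of 4928 such genes overall. The median difference was 0.005 by the brightest probe and 0.10 by the others over these members, and 0 and 0.008 over all such genes. Ndufs4, an accessory subunit of complex I, had a difference of -0.06 by its brightest probe (mean level 11.41) and of 0.22 to 0.40 by its 3 dimmer ones. Ndufs6 differed by 0.005 by the brighter and 0.30 by the dimmer probe. The plot of probe pairs shows these genes above the diagonal. Sdhaf1 was high by both probes (0.74 and 0.96), though it too lies above the line. Ndufv3 (0.42 and 0.47) and Ndufb10 (0.52 and 0.44) lie closer to it. For Ndufv3 the 0.47 averages unlike probes, at 0.683 and 0.258, the latter near background (mean level 7.16).

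**Figure D4:**
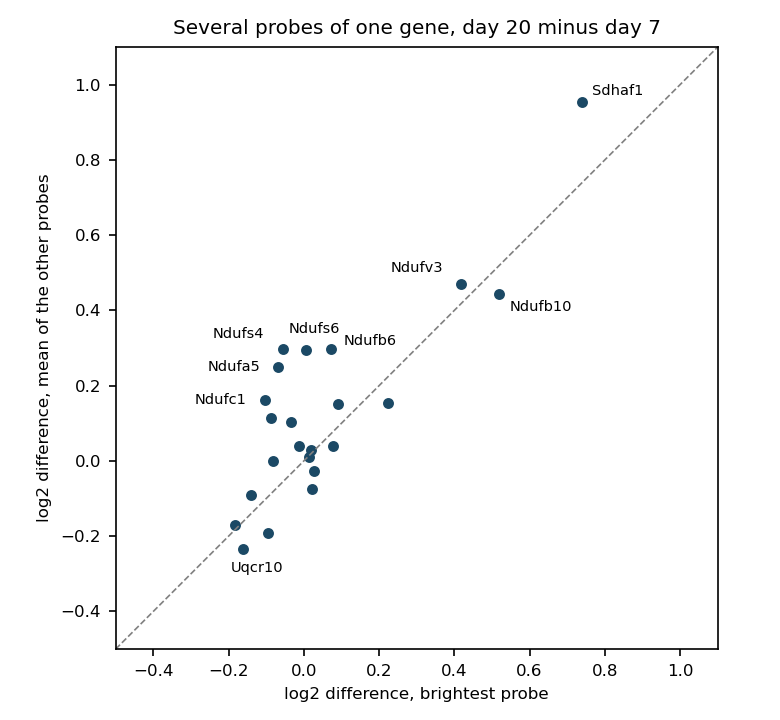
Log2 difference, day 20 minus day 7, by the brightest probe (horizontal) and by the mean of the gene's other probes above background (vertical) for the 23 respiratory chain genes with several such probes; the dashed line marks equality. Ndufs4, Ndufs6, Ndufb6, Ndufa5 and Ndufc1 lie above the line with values near or below 0 by the brightest probe, and Sdhaf1 is high by both (0.74 and 0.96).

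Genes that work with the chain were examined from lists outside the member rule. None of 17 tested genes of ATP synthase passed (median difference -0.03), nor did any of 8 tested genes of the mitochondrial genome (0.15), 15 of the citric acid cycle and pyruvate dehydrogenase (0.16), 27 further assembly factors (0.16) or 9 of coenzyme Q synthesis (0.06). Among 16 tested regulators of mitochondrial gene expression 1 passed: Tfb1m, which modifies mitochondrial ribosomal RNA, rose by 0.41 (SE 0.093, limma adjusted p = 0.0446), and passed in 6 of 17 alternative settings. The coactivator Ppargc1a differed by -0.27 (limma adjusted p = 0.559) and the mitochondrial DNA packaging factor Tfam by 0.31 (0.181).

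A further list held 12 genes with a named probe that are linked to low oxygen and to mitochondria, of which 9 were tested. Of these 9, 4 (44.4%) were higher and none was lower, where 2.51% and 2.33% of all tested genes were. Bnip3, Higd1a and Cox4i2 were above the limit on 0, 1 and 0 arrays and were not tested. By sign, 5 of the 9 differences were positive and 4 negative. The list was drawn up with earlier results of these data known and is not independent evidence. Pdk1, a kinase that restrains pyruvate entry into the citric acid cycle, was at 8.52, 8.35, 8.52 and 8.77 at day 7 and at 10.08, 11.13, 11.01 and 10.05 at day 20 (rise 2.03, SE 0.262, limma adjusted p = 0.00479). Bnip3l, a receptor for the removal of mitochondria, was at 10.48, 10.25, 10.71 and 10.30 and then at 11.03, 11.63, 11.74 and 11.34 (rise 1.0, SE 0.167, limma adjusted p = 0.0152). For both, the 2 highest day 20 arrays were replicates 2 and 3, the day 20 arrays with Xist signal. Lonp1, a matrix protease, rose by 0.40 (limma adjusted p = 0.0349) and the kinase gene Pdk3 by 0.40 (0.0473). Lonp1 passed in 6 and Pdk3 in 3 of 17 alternative settings, whereas Pdk1 and Bnip3l passed in all 17. The other 5 tested genes of the list did not pass. Among them Mxi1 differed by 0.22, Pdk4 by -0.02, Fundc1 by -0.03, Iscu, which takes part in iron-sulfur cluster assembly, by -0.27, and Chchd4, an import factor of the intermembrane space, by -0.57 (SE 0.585). The negative value of Chchd4 came from day 20 replicate 3, at 7.03. The other day 20 arrays were at 9.64, 9.37 and 10.1, and the day 7 arrays at 9.52 to 9.75.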

How the data were processed

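Biotin-labelled RNA was read on Illumina arrays, per the labels' protocols. What the authors deposited and what was used here is a table of log2 intensities, with nearly equal distributions on all arrays; the software and background correction behind it are not stated in the labels. A second deposited table was not used, since its 16 per-sample columns match no sample label.

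Of 45281 probes, 34885 had 1 gene symbol in the platform annotation, 18 several, and 10378 are unnamed here. Background was taken from the lower side of the distribution: its mode was 6.7, its spread (SD) 0.05837, and the limit cuts off an upper tail of 0.05. Intensities were not reduced to 0 at background, which compresses changes of dim genes. For 12466 genes, lmFit and eBayes of limma 3.58.1 (R 4.3.3) gave two-sided tests without covariates, and the code was tested on simulated data. Complexes were described by counts and medians, with no test of a list. Figures used matplotlib 3.10.9 in Python 3.11.15.

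Members and lists were chosen with earlier results of these data known. Named with a value on every array were members past the threshold, the 5 largest rises and falls, alternative isoforms, core subunits of complex I, subunits of complex II, Uqcrfs1, Cyc1 and Cycs; genes of other lists were named where they passed, and a few others are named for context, chosen after their values were seen. Symbols without a named probe, among them Uqcrb, Cox7c, Cox8a and Ndufa4l2, were not analysed here. Alternatives were cyclic loess, no filter, a strict filter (limit 6.836), array weights, averaged probes, robust variance with a trend, the replicate number as a block, background-subtracted values plus 16, each array left out, and the 6 arrays with Xist signal.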

Additional observations from a re-analysis of the deposited data

Results flagged for a closer look

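For 2 of 84 groups of 4 arrays, 1 array lay far from the other 3, with a gap, as a share of the group's range, above Dixon's 95% critical value; chance gives this in about 5% of groups. In the day 7 group of Cox7a1, the muscle isoform gene of complex IV, the ratio was 0.864, with replicate 2 at 10.70 and the others at 8.28 to 8.61. In the day 20 group of the cytochrome c gene Cycs the ratio was 0.837, with replicate 3 at 11.55 and the others at 11.96 to 12.04.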

How the results depend on the processing

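Array signal over background and the number of arrays limit these results; genes near the limit of 6.796 have compressed differences. Over 17 alternatives, 487 of 560 values of the 33 genes given by name kept their direction and their side of the threshold, and the cause of the other values was not tested. The count of called genes, 604, was 401 with the replicate block and 301 to 579 with 1 array left out. It was 301 and 349 without day 7 replicate 1 or 3, and 373 and 353 without day 20 replicate 2 or 4. Members called higher numbered 1 with the replicate block (Cox6b2 was lost at a difference of 0.495, limma adjusted p = 0.0606), 1 in the 6 arrays that have Xist signal, and 1 to 3 with 1 array left out; lower members numbered 0 to 1, the 1 being Cox7a1 in the absence of day 7 replicate 2. In those 6 arrays the median was -0.034 for complex I accessory subunits and -0.07 for complex I assembly factors. Same-numbered arrays deviated from their day's mean with r of 0.119, 0.05, -0.01 and 0.142 across genes, so the numbers were not taken as pairs. With 1 array left out, uncalled values near 0 changed sign, within -0.113 to 0.041 for Ndufa4, -0.115 to 0.032 for Cox6a1, -0.018 to 0.186 for Cox7a2l, -0.016 to 0.054 for Cox7b, -0.004 to 0.072 for Ndufs7, -0.046 to 0.05 for Ndufv2, -0.056 to 0.147 for Sdhb, -0.068 to 0.096 for Sdhc and -0.039 to 0.124 for Cycs. Cox6a1 was at 0.034 with probes averaged and Ndufv2 at 0.001 under cyclic loess. In the 6 Xist-positive arrays Ndufv2 was at 0.035, Sdhb at -0.067, Cyc1 at -0.015 and Cycs at -0.067.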
